A study of Mus musculus with 8 samples.

Results

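Cyp26a1, Cyp26b1, Rara, Rarb, Dhrs3, Lrat and Rbp4 are 7 genes of retinoic acid turnover and retinoid storage, out of 35975 genes counted in mouse liver. They were chosen by name, with earlier results of these data known. Among these, Cyp26a1 was far higher in a single saline-infused liver than in the rest. The question was whether other retinoid genes follow that liver. The values of Cyp26a1 are therefore given as a description and carry no test. The level of a gene was the sum of the estimated counts of its transcripts. The genes tested were the 12883 with no library under 10 counts, and all 7 genes entered that fit.

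The livers came from C57BL/6 mice (C57BL/6J in the methods of the study), bought at 8 to 10 weeks of age, that received normal saline (4 mice, NS1 to NS4) or 4-hydroxyphenylacetic acid (4-HPAA, 4 mice, HP1 to HP4) into the portal vein for 2 weeks. 4-HPAA is a phenolic acid that gut microbes make. The pump held 55 mM 4-HPAA or saline alone and ran at 0.25 µL per h, and every mouse of both groups carried the catheter and the pump, so that the surgery was common to all. Libraries held 29559978 to 30673398 counts, and the totals of the groups did not differ beyond their spread (exact permutation test, two-sided, p = 0.343). The sex of the mice was not labelled. The Y-linked genes Ddx3y and Eif2s3y stood at 72.1 to 89.5 and 43.7 to 52.0 CPM (counts scaled to a common library total by TMM) in all 8 livers, so that the mice read as male. The hepatocyte marker Alb stood at 73130 to 100791 CPM.

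Retinol circulates bound to RBP4, which hepatocytes secrete, and is stored in the liver as retinyl ester, chiefly in stellate cells, where LRAT makes the ester. Retinol is oxidized to retinal and then to retinoic acid, which acts through the nuclear receptors RARA, RARB and RARG paired with the RXR receptors, and the cytochrome P450 enzymes of the CYP26 family clear it. Cyp26a1, Cyp26b1, Rarb, Dhrs3 and Lrat are themselves known to be switched on by retinoic acid.

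The upstream regions of Cyp26a1 and Rarb are shown because they were the members whose level was highest in NS1, and because each holds the direct repeat to which retinoic acid receptors classically bind. Both sequences are the 250 bases before the RefSeq start of the gene, read on the strand of the gene, with the repeat in capitals. The Cyp26a1 region is chr19:37697558-37697807 (GRCm38.p6, plus strand) and the Rarb region is chr14:16575477-16575726 (GRCm38.p6, minus strand).
Cyp26a1: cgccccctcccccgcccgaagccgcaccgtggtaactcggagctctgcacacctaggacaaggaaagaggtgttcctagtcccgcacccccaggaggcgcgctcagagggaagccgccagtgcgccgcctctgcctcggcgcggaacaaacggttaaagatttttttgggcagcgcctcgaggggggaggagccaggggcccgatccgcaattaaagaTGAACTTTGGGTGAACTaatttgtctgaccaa
Rarb: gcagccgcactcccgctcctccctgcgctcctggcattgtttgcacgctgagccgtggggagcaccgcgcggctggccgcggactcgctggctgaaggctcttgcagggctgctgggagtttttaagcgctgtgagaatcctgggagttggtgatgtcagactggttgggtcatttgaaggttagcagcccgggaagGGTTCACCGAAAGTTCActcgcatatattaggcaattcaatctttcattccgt
The search took the half-site AGGTCA, the variant half-site AGTTCA, the related form written GGGTCA or the related form written GGTTCA, in any pair in the same direction with a spacer of 5 bases, on both strands, in windows from 250 bases before to 50 bases after each RefSeq start. In Cyp26a1 the repeat lay on the opposite strand, 32 to 16 bases before the start, and in Rarb it lay on the strand of the gene, 53 to 37 bases before the start. It was found in 32 of 32851 windows, which is 0.0974%, and among the 55 genes of the retinoid lists that had a window it was found in these 2. Spacers of 1 and 2 bases were searched as well, and were found in 0.222% and 0.268% of windows. Among the same 55 genes the spacer of 1 was found only in Bco1, and the spacer of 2 in 0. The other members had no match in this window, and a match is a property of the letters and not a measurement of binding. Across the genome the windows with the repeat of spacer 5 belonged to 31 genes, of which 6 were tested here. Beside Cyp26a1, 1 of the other 5, Rarb, was highest in NS1 by CPM, against 12.0% of all genes tested. The median excess of the 5 in NS1 over the other livers was -0.19 on the log2 scale.

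Cyp26a1, the main retinoic acid hydroxylase of liver (chr19:37697798-37701536, plus strand, GRCm38), had 740 counts in NS1, against 92, 94 and 134 in NS2 to NS4 and 215, 152, 112 and 113 in HP1 to HP4. The levels were 23.7, 3.16, 3.08 and 4.60 CPM with saline and 7.51, 5.07, 3.62 and 3.95 CPM with 4-HPAA. NS1 stood alone, HP1 was the next, and the other 6 livers lay close together. On the log2 scale NS1 was 2.57 above the median of the other 7 livers, a ratio of 5.92, and HP1 was 0.98 above the median of the remaining 6. Nearly all of it came from a single transcript, the coding transcript Cyp26a1-201 of 7 exons, with 733 counts in NS1 and 90.3 to 211 elsewhere, while the retained-intron transcript Cyp26a1-202 held 7.1 counts in NS1. Over the 12883 genes tested, Cyp26a1 was the 6th by its excess in NS1.

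**Figure D1:**
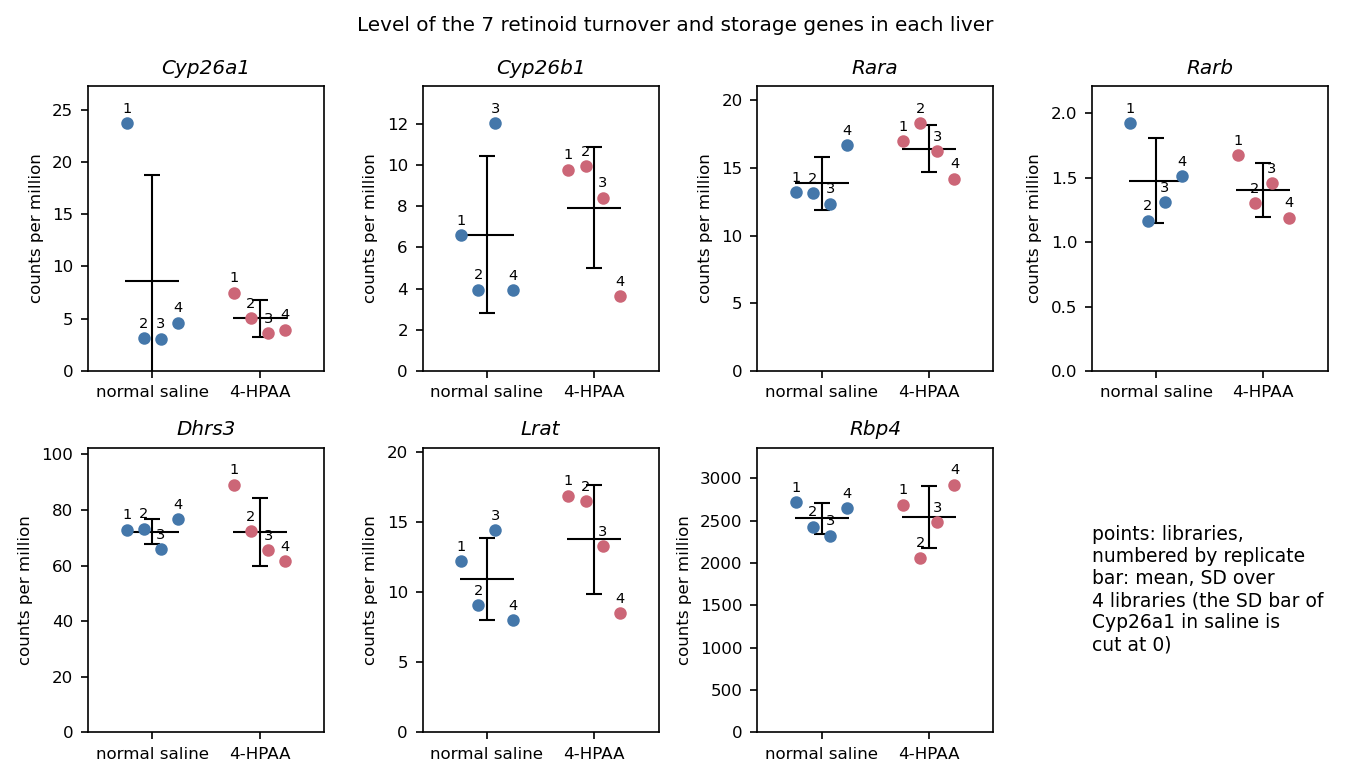
Level of each of the 7 genes (CPM, linear axes from 0) in the 4 normal saline and the 4 4-HPAA livers, with points numbered by replicate and bars for the mean and SD over 4 libraries. Cyp26a1 stands at 23.7 CPM in normal saline replicate 1 and at 3.08 to 7.51 CPM in the other 7 livers, and the points of the 2 groups overlap in every panel.

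Cyp26b1 did not share the high level in NS1. This enzyme, which also hydroxylates retinoic acid, was at 6.60, 3.95, 12.0 and 3.92 CPM in NS1 to NS4 and at 9.78, 9.94, 8.41 and 3.64 CPM in HP1 to HP4. It was highest in NS3 and lowest in HP4, with NS1 5th of the 8 livers and 0.35 below the median of the other 7 on the log2 scale. Cyp26c1, the third enzyme of the family and the nearest gene to Cyp26a1, 4400 bases upstream, had only 12, 5, 6 and 5 counts with saline and 7, 7, 7 and 0 with 4-HPAA, too few to be tested. Its 12 counts in NS1 were the most of any liver.

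Of the receptors, Rarb came closest to the pattern of Cyp26a1 by CPM. Its counts were 60, 34, 40 and 44 with saline and 48, 39, 45 and 34 with 4-HPAA, or 1.92, 1.17, 1.31 and 1.51 CPM and 1.68, 1.30, 1.46 and 1.19 CPM. NS1 was the highest and HP1 the second, as for Cyp26a1, but the distance was small: NS1 lay 0.53 above the median of the other 7 on the log2 scale, a ratio of 1.44. The counting interval of 45.8 to 77.2 around the 60 counts of NS1 overlapped that of each other liver, including 23.5 to 47.5 around the 34 counts of NS2. The main coding transcript, Rarb-201, showed it more sharply, with 57.0 counts in NS1 against 13.2 in HP4 to 39.0 in HP1, 0.96 above the median of the other 7 on the log2 scale. Per transcript length the order turned: at 1.20 TPM (counts divided by transcript length and scaled to a common total) NS1 was the 4th of the 8 livers, and HP3, which had more counts on short transcripts of the gene, was the highest at 1.84 TPM. Rarb also overlaps Top2b on the other strand (12029 counts over the 8 livers), and kallisto was run with its standard parameters, which do not use the strand, so that reads shared by the transcripts of both genes cannot be told apart.

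Rara, the RAR gene with the highest level per length (a mean of 8.52 TPM over the 8 livers, against 2.63 TPM for Rarg), was at 13.2, 13.1, 12.4 and 16.7 CPM with saline and 17.0, 18.3, 16.2 and 14.2 CPM with 4-HPAA. Here NS1 was among the lower livers, 0.30 below the median of the other 7 on the log2 scale, and the highest was HP2. The transcripts of Rara were led by Rara-202, with 55.3% to 72.6% of the counts of the gene in each liver, followed by Rara-204. Rara-203 was listed at 74.6 counts in NS4, 13.1 in HP4 and 0 in the other 6 livers, a division among overlapping transcripts that rests on the authors' estimates. Among the remaining receptors, Rxra, the principal partner of the RARs in liver, ran from 410 to 472 CPM with NS1 at 435 CPM. Rarg, the third RAR, ran from 2.92 to 5.62 CPM with NS1 at 3.69 CPM, and Rxrb from 27.3 to 32.4 CPM with NS1 at 27.5 CPM.

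Dhrs3, a retinal reductase that returns retinal to retinol and a classical retinoic acid target, was at 73.0, 73.3, 65.9 and 76.7 CPM in NS1 to NS4 and at 89.1, 72.4, 65.5 and 61.6 CPM in HP1 to HP4. NS1 was in the middle, 0.01 from the median of the other 7 on the log2 scale, while HP1 was the highest. Its main transcript, Dhrs3-207, had 1064 counts in NS1 and 696 to 1252 in the other 7 livers.

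Lrat, the enzyme that esterifies retinol, had levels of 12.2, 9.09, 14.4 and 8.0 CPM with saline and of 16.9, 16.5, 13.3 and 8.50 CPM with 4-HPAA. NS1 was the 5th of the 8 livers, 0.12 below the median of the other 7 on the log2 scale, and the lowest were NS4 and HP4. Rbp4, the plasma carrier of retinol, stood at 2719, 2428, 2323 and 2648 CPM with saline and at 2687, 2064, 2483 and 2926 CPM with 4-HPAA. NS1 was second for Rbp4, only 0.13 above the median of the other 7 on the log2 scale, and HP4 was the highest.

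Beside Cyp26a1, which was chosen for it, 1 of the other 6 genes, Rarb, was highest in NS1 by CPM, against 12.0% of all genes tested. On the TPM scale 0 of the 6 were, against 19.6% of all genes. Rarb was also the 1 gene of the 6 with NS1 and HP1 as its 2 highest livers by CPM, against 3.7% of all genes tested. The other 5 genes lay within 0.35 of the median on the log2 scale in NS1, on either side of it, and the single liver with high Cyp26a1 was not a liver with high levels of the whole group.

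Per transcript length the members covered a wide range. The mean TPM over the 8 livers was 4408 for Rbp4 (range 3701 to 4948), 79.0 for Dhrs3 (66.5 to 95), 8.52 for Rara (7.0 to 10.6), 6.48 for Cyp26a1 (2.83 to 22.9), 3.78 for Lrat (2.41 to 5.2), 2.81 for Cyp26b1 (1.38 to 4.73) and 1.22 for Rarb (0.979 to 1.84). Rbp4 and Dhrs3 each stood apart from the gene below them in every liver. The ranges of neighbours overlapped from Rara down to Rarb. Within single livers Rara was above Cyp26a1 in 7 of 8, Cyp26a1 above Lrat in 5, Lrat above Cyp26b1 in 7 and Cyp26b1 above Rarb in 8. The mean of Cyp26a1 rests on NS1, without which its highest level was 6.72 TPM.

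A wider set of 71 retinoid genes, grouped by role, was read in the same way, and 60 of them were tested. Without Cyp26a1, 9 of the other 59 were highest in NS1, against 12.0% of all genes tested. Of the 60, 11 were highest in NS3, against 12.0%, and 14 in HP1, against 9.76%. The median excess of NS1 over the other 7 livers was 0.01 on the log2 scale for the 59 genes and -0.0022 for all genes tested. Only 2 of the 60, or 1 beside Cyp26a1, were over 2-fold above the median of the other 7 in NS1, against 0.776% of all genes tested. That gene was Fgf21, a secreted metabolic hormone, at 2.92, 1.03, 0.590 and 1.44 CPM with saline and 0.628, 0.40, 1.68 and 5.95 CPM with 4-HPAA, a gene picked here after its values were seen. It was higher still in HP4 than in NS1. Of the known retinoic acid targets other than Cyp26a1, 2 of the 9 tested, Rarb and Pck1, were highest in NS1 by CPM, against 12.0% of all genes tested. Both had HP1 second, and 3.7% of all genes tested had NS1 and HP1 as their 2 highest livers. Pck1, a gluconeogenic enzyme, was at 5251 CPM in NS1 and 4009 to 5247 CPM in the other 7, and the median excess of the 9 targets was 0.01 on the log2 scale.

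**Figure D2:**
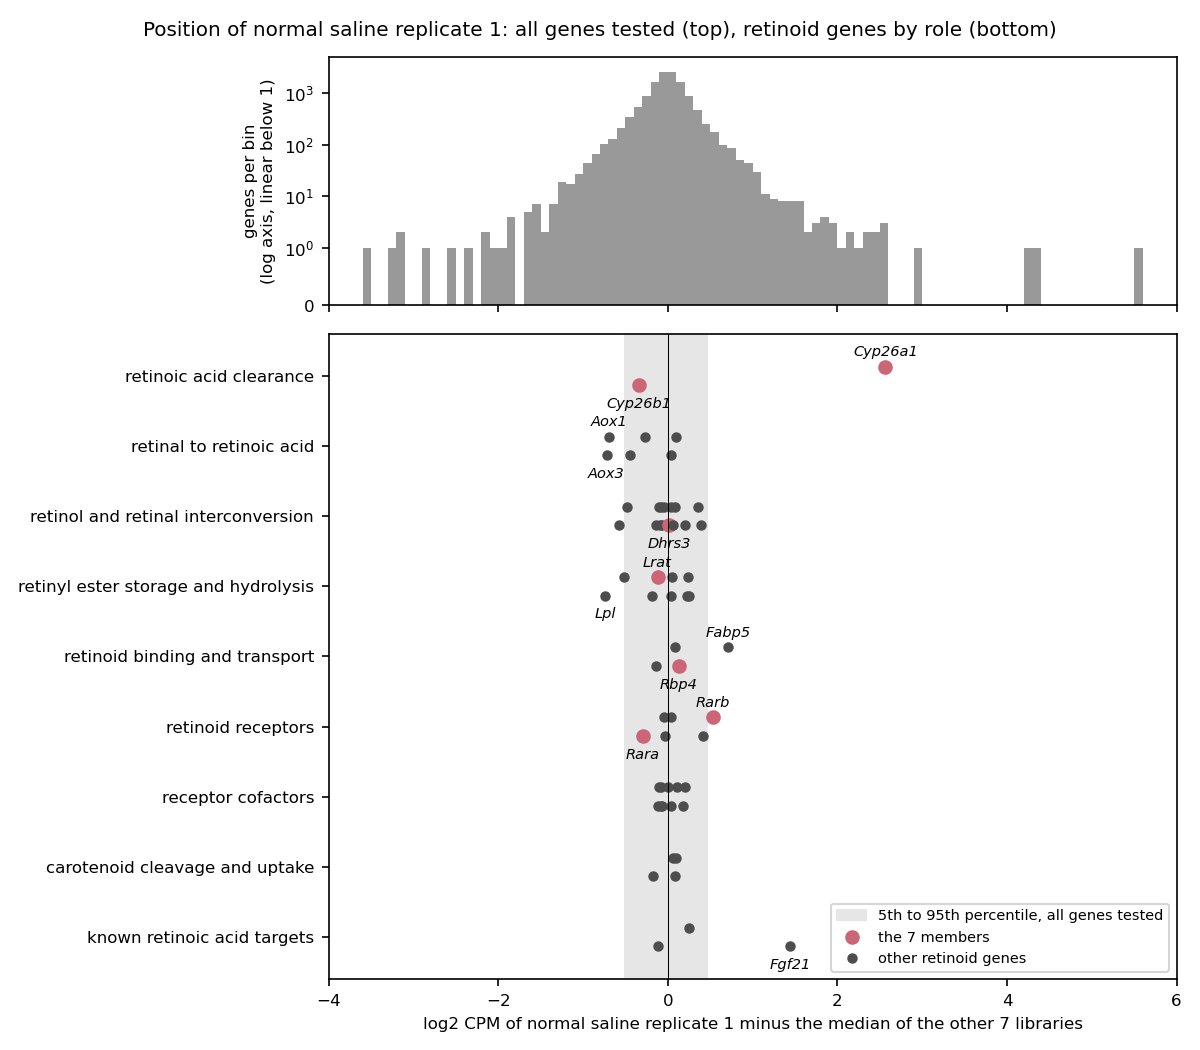
Position of normal saline replicate 1, as its log2 CPM minus the median of the other 7 libraries, for all 12883 genes tested (top, genes per bin of 0.1, log axis that is linear below 1) and for 59 of the 60 retinoid genes tested, by role (bottom; red, the 7 members; grey band, 5th to 95th percentile of all genes, -0.50 to 0.46). Cyp26a1 at 2.57 lies far outside the band, Rarb at 0.53 just outside it, and the other 5 members inside it.

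Genes that make retinoic acid from retinal had a median excess of -0.36 in NS1 on the log2 scale, and 0 of the 6 tested were highest there. Aox3, an aldehyde oxidase and the largest deviation, was at 354 CPM in NS1, the lowest of the 8 livers, and at 492 to 794 CPM in the other 7. Aldh1a1, the main hepatic retinal dehydrogenase, was at 688, 830, 1054 and 547 CPM with saline and 818, 865, 837 and 468 CPM with 4-HPAA, lowest in HP4 and NS4. Aldh1a7 was also lowest in NS1, at 105 CPM against 127 to 164 CPM, and Aldh8a1 was at 271 CPM in NS1 within a range of 245 to 288 CPM. Of the genes that exchange retinol and retinal, 3 of the 15 tested were highest in NS1, among them Adh1, an alcohol dehydrogenase, at 1712 CPM against 1261 to 1663 CPM in the other 7, and Rdh16f2 at 149 CPM against 101 to 139 CPM. Rdh7, a retinol dehydrogenase, was at 1044 CPM in NS1, within the 987 to 1231 CPM of the others. The largest deviations in this list went the other way, Adh4 at -0.58 and Adh7 at -0.48 on the log2 scale, both lowest in NS1. The median excess of the 15 was -0.05.

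Among the 9 tested genes of retinyl ester storage and hydrolysis, 3 were highest in NS1 by small margins and the 2 largest deviations went the other way, Lpl at -0.74 and Lipe at -0.52 on the log2 scale, both lowest in NS1. Ces1d, a carboxylesterase, was at 1118 CPM in NS1 and 814 to 1024 CPM elsewhere, and Pnpla2, the triglyceride lipase, was at 136.4 CPM against 96.6 to 136.0 CPM. Of the carriers, Ttr, the plasma partner of RBP4, ran from 3575 to 4411 CPM with NS1 at 4162 CPM. Stra6, Crabp1, Crabp2 and Rbp2 had 0 to 2 counts in all over the 8 livers.

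No difference between the treatments passed the test in these genes. With edgeR's quasi-likelihood test and Benjamini-Hochberg adjustment over all 12883 genes, 0 of the 6 genes other than Cyp26a1 passed, as did 0 (0.0%) of all genes. Of all genes, 225 (1.75%) had an unadjusted p under 0.05. In none of the 6 did the livers of the 2 groups separate without overlap, against 1.2% of all genes tested. The 7 genes, with Cyp26a1 among them as a description, had a median log2 fold change (4-HPAA over saline) of 0.0059, and all genes tested a median of 0.00071. All 6 genes other than Cyp26a1 had an adjusted p of 1.00 in edgeR.

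Rara had the smallest p of the 6, with a mean of 13.9 ± 1.93 CPM with saline and 16.4 ± 1.71 CPM with 4-HPAA (SD, 4 livers each). Its log2 fold change in edgeR was 0.25 (95% confidence interval -0.01 to 0.50), with an unadjusted p of 0.0583. Lrat averaged 10.9 ± 2.94 CPM and 13.8 ± 3.89 CPM, with a log2 fold change of 0.34 (-0.20 to 0.87). The intervals of both genes reached across 0. Cyp26b1 averaged 6.63 ± 3.82 CPM and 7.94 ± 2.95 CPM, with a log2 fold change of 0.26 (-0.64 to 1.16), an interval too wide to exclude a 2-fold change upward. For Rarb the log2 fold change was -0.07 (-0.53 to 0.38). Dhrs3 and Rbp4, the members with the narrowest intervals beside Rara, gave -0.0015 (-0.26 to 0.25) and 0.0059 (-0.27 to 0.28).

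Cyp26a1 had a mean of 8.64 ± 10.1 CPM with saline and 5.04 ± 1.76 CPM with 4-HPAA (SD, 4 livers each). The fitted log2 fold change, given as a description only, was -0.78 with all livers and 0.48 when NS1 was left out. Leaving out NS1, the liver by which the gene was chosen, could only raise it, and its sign rested on that 1 liver.

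**Figure D3:**
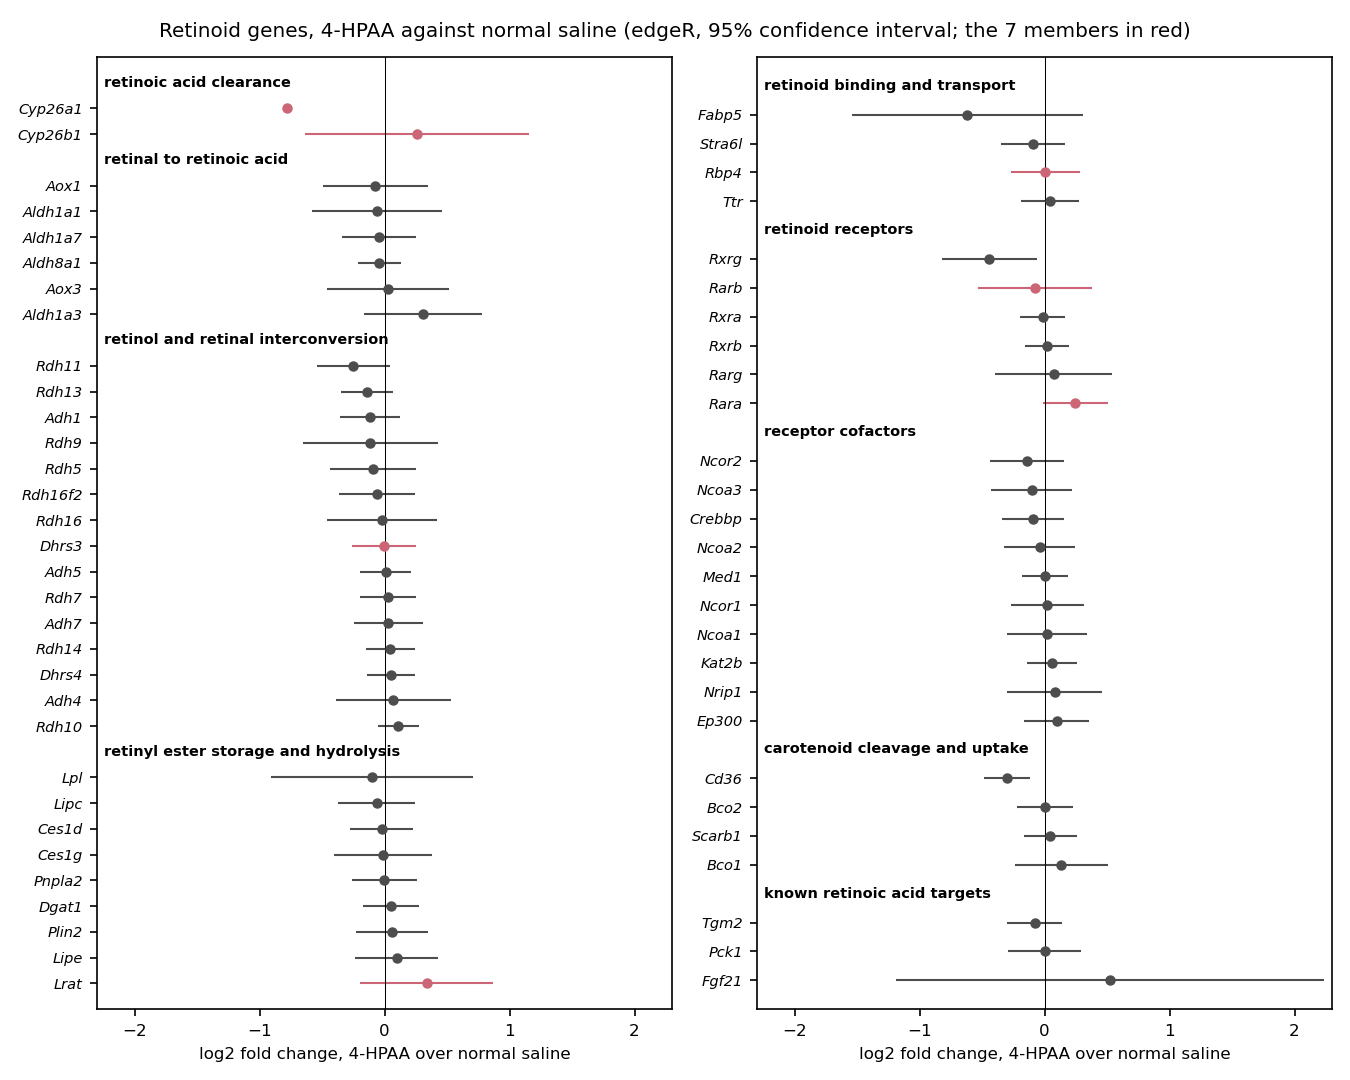
Log2 fold change of 4-HPAA over normal saline with its 95% confidence interval (edgeR) for the tested retinoid genes, by role, with the 7 members in red and each gene shown once (59 of the 60). Cyp26a1, chosen by its values, is shown at -0.78 without an interval, and only the intervals of Cd36 and Rxrg lie wholly on one side of 0, before adjustment.

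Of the 60 retinoid genes tested, 30 had a higher and 30 a lower fitted mean with 4-HPAA. Their median log2 fold change was -0.00032, with Cyp26a1 among them as a description. Of the 59 other than Cyp26a1, 0 passed the adjusted threshold, as did 0 (0.0%) of all genes tested. An unadjusted p under 0.05 in edgeR was reached by 2 of these 59, against 1.75% of all genes tested. Cd36, a fatty acid transporter that also takes up carotenoids, was at 43.8, 47.6, 47.3 and 43.2 CPM with saline and at 37.7, 41.0, 32.8 and 35.8 CPM with 4-HPAA. It was the only one of these 59 whose groups did not overlap, against 1.2% of all genes tested. Its log2 fold change was -0.30 (SE 0.0827, edgeR unadjusted p = 0.00435, adjusted p = 1.00). Rxrg, an RXR receptor of low level, was at 4.39, 4.29, 3.25 and 5.32 CPM with saline and 2.97, 2.77, 3.66 and 3.29 CPM with 4-HPAA, with 1 saline liver inside the 4-HPAA range. Its log2 fold change was -0.44 (SE 0.171, edgeR unadjusted p = 0.027, adjusted p = 1.00), and it is named here after its values were seen.

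In Lrat and Cyp26b1 the low livers carried the same replicate number in both groups. NS4 and HP4 were the 2 lowest, at 8.0 and 8.50 CPM for Lrat and 3.92 and 3.64 CPM for Cyp26b1, which held for 2 of the 7 members, 14 of the 60 retinoid genes and 11.4% of all genes tested. Cyp26b1 in NS2, at 3.95 CPM, was hardly higher. The summed level of 17 stellate cell markers, Lrat among them, was lowest in the same livers, at 217 CPM in NS4 and 231 CPM in HP4, against 259 to 374 CPM in the other 6, and 10 of the 17 had these 2 livers as their lowest. Sinusoidal endothelial markers and Kupffer cell and leukocyte markers were lowest there too. The sum of 6 sinusoidal endothelial markers was 102 and 101 CPM against 127 to 167 CPM. That of 6 Kupffer cell and leukocyte markers was 71.3 and 64.6 CPM against 83.5 to 234 CPM. In each list 5 of 6 genes had these 2 livers as their lowest. The summed cholangiocyte markers differed, at 23.4 CPM in NS4 and 37.9 CPM in HP4, against 23.9 to 45.5 CPM in the other 6. Of the 4 cholangiocyte markers tested, 0 had these 2 livers as their lowest. The part of all these markers in the levels of Lrat and Cyp26b1 was not tested. In whole liver, fewer stellate cells and less RNA of a gene in each cell cannot be told apart. Set against the sum of the other 16 markers, Lrat amounted to 3.39% in NS1, the lowest, 3.64% in NS2, 3.69% in HP3, 3.82% in HP4, 3.83% in NS4 and up to 5.17% in HP1. Cyp26b1 amounted to 1.58% in NS2, 1.64% in HP4, 1.83% in NS1 and 1.88% in NS4, and up to 4.10% in NS3. Much of the sum was Dcn and Ecm1, at 113 and 98.8 CPM of the 361 CPM in NS1. What these shares owe to the number of stellate cells was not tested.

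**Figure D4:**
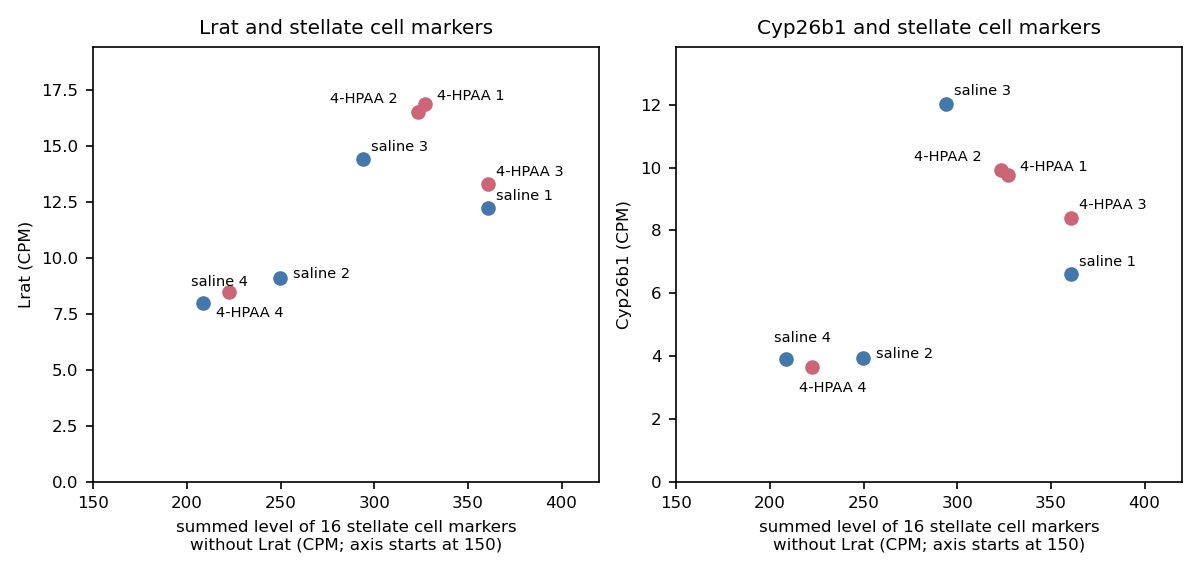
Level of Lrat (left) and Cyp26b1 (right) in CPM against the summed level of 16 stellate cell markers without Lrat (CPM, axis from 150), with each liver labelled (blue, normal saline; red, 4-HPAA). The livers of replicates 4 and normal saline replicate 2 lie at the lower left in both panels, and normal saline replicate 1, at 361 CPM of markers, lies below 4-HPAA replicates 1 and 2 in both genes.

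The opposite order, with NS4 and HP4 as the 2 highest livers, held for 0 of the 7 members, 7 of the 60 retinoid genes and 8.87% of all genes tested. The corepressors and coactivators of the receptors were low in these livers: 7 of the 10 tested, Ncor1 and Ncoa2 among them, had NS4 and HP4 as their 2 lowest. Ncor1 was at 87.0 and 79.5 CPM there and at 95.5 to 123 CPM in the other 6 livers.

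The genes nearest in pattern to Cyp26a1 were not retinoid genes. Likeness was measured as the root mean square distance between log2 CPM, each gene centred on its mean over the 8 livers. Lcn2, an iron-scavenging acute phase protein, was the nearest at a distance of 0.35, followed by Cux2 (0.47), Adamtsl2 (0.48), Ntf3 (0.48) and Atf3 (0.49), against a median of 0.92 over all genes. Lcn2 was at 17.6 CPM in NS1 and 3.67 to 6.98 CPM in the other 7 livers, with HP1 second as for Cyp26a1. Of the 6 acute phase genes listed, Lcn2 was the only 1 highest in NS1, and their median excess there was 0.04 on the log2 scale. Atf3, a stress-induced transcription factor, was at 4.42 CPM in NS1 and 0.485 to 1.01 CPM elsewhere, with HP1 at 0.559 CPM. Among the members Rarb ranked 181st of all genes by distance (0.72), Dhrs3 1967th (0.86), Rbp4 2525th (0.87), Lrat 5490th (0.91), Rara 7140th (0.93) and Cyp26b1 11660th (1.06). These distances rest largely on 1 liver and describe these 8 livers alone.

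NS1 also held high levels of immediate early genes, which respond within minutes to stress. Of the 6 listed, 5 were highest there, against 12.0% of all genes tested. Myc, the exception, ranked 6th in NS1, at 7.47 CPM against 4.40 to 18.3 CPM in the other livers. Fos was at 45.6, 0.892, 0.951 and 7.39 CPM with saline and 27.5, 0.700, 0.647 and 0.420 CPM with 4-HPAA, and Egr1 at 141, 28.0, 24 and 60.0 CPM and 102, 15.2, 10.3 and 4.72 CPM. In 3 of the 6, Fos and Egr1 among them, the 2 highest livers were NS1 and HP1, as for Cyp26a1 and Rarb, against 3.7% of all genes tested. Atf3 did not have this order, with HP1 at 0.559 CPM. The summed level of the 6 was 313 CPM in NS1, 190 CPM in HP1 and 34.7 to 117 CPM in the other 6, or 54.0 to 313 CPM over the saline and 34.7 to 190 CPM over the 4-HPAA livers. Their part in the level of Cyp26a1 was not tested. The summed level of 5 cholangiocyte markers was also highest in NS1, at 45.5 CPM against 23.4 to 37.9 CPM in the other 7, with 3 of the 4 tested markers highest there, and its part was not tested either.

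Zonal markers were mixed in NS1. Cyp26a1 is a pericentral gene in liver, and the summed level of 10 pericentral markers was 8722 CPM in NS1, within the 5854 to 9431 CPM of the other 7, while NS4 and HP4 were the 2 lowest. Most of that sum was Cyp2e1, and the median excess of the 10 genes in NS1 was -0.26 on the log2 scale. Glul, the pericentral glutamine synthetase, was highest in NS1, at 965 CPM against 415 to 935 CPM in the other 7, while Oat was lowest there, at 345 CPM against 443 to 630 CPM. The summed level of 6 periportal markers was 9882 CPM in NS1, within the 8447 to 11912 CPM of the other 7.

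**Figure D5:**
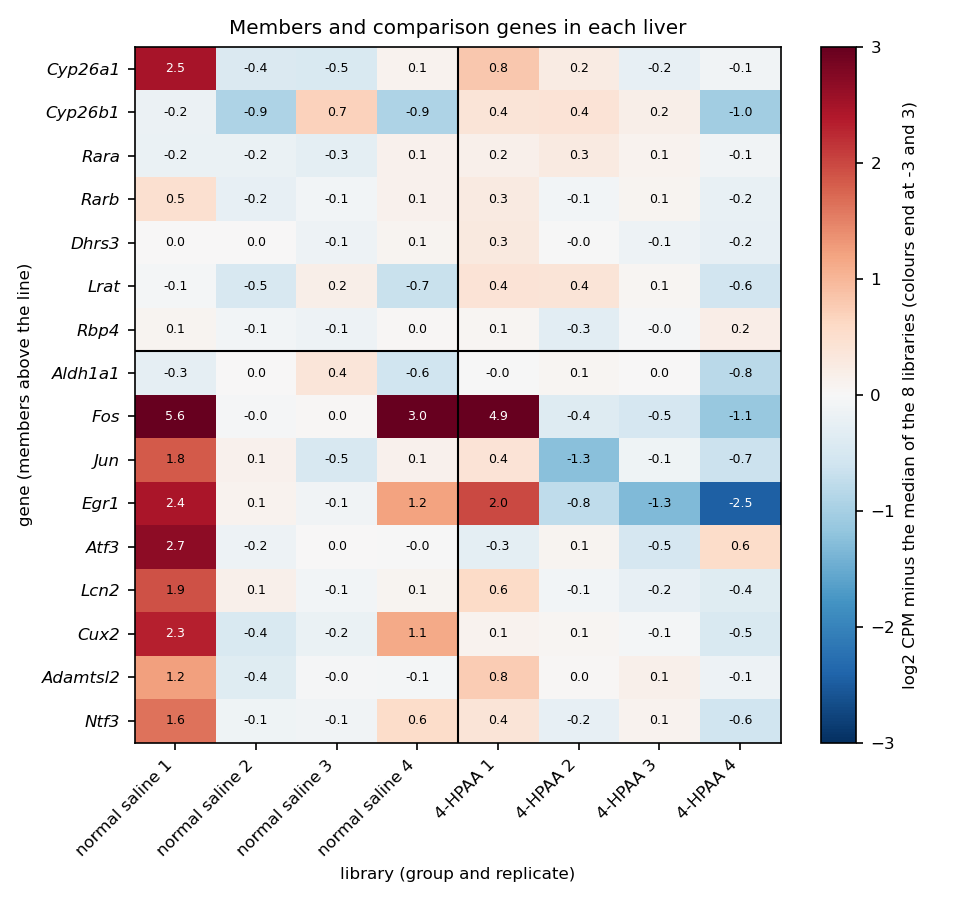
Log2 CPM minus the median of the 8 livers for the 7 members (above the line) and for comparison genes, with 1 column for each liver. Normal saline replicate 1 is red in Cyp26a1, in Fos, Jun, Egr1 and Atf3 and in the genes nearest to Cyp26a1, while among the members it is close to 0 in all but Cyp26a1 and Rarb, and the replicate 4 livers are blue in Cyp26b1, Lrat and Aldh1a1.

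The neighbours of Cyp26a1 on its chromosome differed in their position in NS1. Cyp26c1, the nearest, had its most counts there, as given above. Exoc6, 13739 bases away, was at the median of the other 7 livers in NS1 (-0.00024 on the log2 scale), and Hhex, a homeobox gene 257067 bases away, was 0.75 below it. Myof (197500 bases) was 0.26 and Pde6c (431245 bases) 0.29 above it. Rbp4 itself lies 415093 bases downstream and was 0.13 above.

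By their excess in NS1, 5 genes exceeded Cyp26a1: Fos (5.57 on the log2 scale), Cyp2a4 (4.38), Nr4a1 (4.21), Fam107a (2.94) and Atf3 (2.57). Cyp2a4 was higher in NS4, at 275 CPM, than in NS1, at 28.2 CPM. The genes furthest below the other livers in NS1 were Mup7, Mup12, Mup1, Olfr753-ps1 and Mup14, at -3.59 to -2.85 on the log2 scale. Mup7, a major urinary protein gene, was at 1219 CPM in NS1, 1931 CPM in NS4 and 1581 CPM in HP4, against 12599 to 18284 CPM in the other 5, and near-identical copies make counts of single Mup genes uncertain. Cyp26a1 did not follow that split, at 4.60 and 3.95 CPM in NS4 and HP4.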

How the data were processed

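Liver RNA of 4 normal saline and 4 4-HPAA mice was sequenced as paired 100 bp reads after a directional mRNA kit. The authors ran FastQC 0.11.9 and kallisto, a pseudo-aligner, and deposited an estimated count per transcript and library, neither normalized nor pooled. The study names GRCm38.p6, and the transcripts carry Ensembl identifiers.

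These were added up by gene with GENCODE M21 (GRCm38; 116728 of 119414 transcripts matched, 2686 left out) and rounded to whole numbers. Genes with no library under 10 counts entered edgeR 4.0.16 in R 4.3.3 (quasi-likelihood F test, TMM, Benjamini-Hochberg, threshold 0.05). Standard errors are the absolute log2 fold change over the square root of F. CPM use TMM, log2 CPM a prior count of 2. TPM use annotated transcript lengths. The position of NS1 is its log2 CPM minus the median of the other 7 libraries, with no test. Promoter windows are from RefSeq. Counting intervals are exact Poisson intervals and cover counting error only. Nothing read here gives the litters or days of the mice, so that p-values measure the spread between these livers.

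The genes named are the 7 members, at most 4 genes a list with the most counts, the 5 genes nearest to Cyp26a1, the 5 with the largest excess and the 5 with the largest deficit in NS1, and the genes around Cyp26a1. Others, such as Fgf21, Rxrg, Stra6, Crabp1, Crabp2, Rbp2, Egr1, Myc, Glul, Oat, Adh4, Adh7, Lpl, Lipe, Cyp2e1, Dcn, Ecm1, Alb, Ddx3y and Eif2s3y, were named after their values were seen. Of the listed genes, 1 enters the counts of its lists and is not reported here by its own values. The members and lists were chosen with earlier results of these data known. Alternatives were DESeq2 1.42.0, RLE normalization, total counts, other filters, prior count and transcripts, TPM, the replicate number as a block, and each library left out. Tables and figures used Python 3.11.15, pandas 2.3.3, SciPy 1.17.1 and matplotlib 3.10.9, and the scripts were tested on simulated data.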

Additional observations from a re-analysis of the deposited data

Results flagged for a closer look

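In 22 of 154 groups of 4 livers, 1 liver stood apart, its gap to the nearest being a larger share of the range of the group than Dixon's 95% critical value, where chance gives about 1 in 20. The 22 cannot be set against that share, since Cyp26a1 and the genes nearest to it or furthest apart in normal saline replicate 1 were chosen by that liver, and the genes of 1 liver are not independent. Each gap is given as a value only.

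Normal saline replicate 1 was the high liver for Cyp26a1 (23.7 CPM against 3.08 to 4.60 in the rest of its group, gap 0.926), for its neighbour Cyp26c1 (0.385 against 0.172 to 0.197 CPM, gap 0.881), for Lcn2 (17.6 against 4.43 to 5.21 CPM, gap 0.940), for Adamtsl2 (11.9 against 3.95 to 4.95 CPM, gap 0.874), for Atf3 (4.42 against 0.617 to 0.689 CPM, gap 0.981), for Fam107a (18.6 against 1.27 to 2.37 CPM, gap 0.937), for Nr4a1 (22.1 against 0.918 to 3.09 CPM, gap 0.897) and for Fos (45.6 against 0.892 to 7.39 CPM, gap 0.855). The summed cholangiocyte markers of that liver, 45.5 against 23.4 to 27.1 CPM, also stood apart (gap 0.833).

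4-HPAA replicate 1 stood apart for Fos (27.5 against 0.420 to 0.700 CPM, gap 0.990) and for the summed immediate early genes (190 against 34.7 to 56.0 CPM, gap 0.863).

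4-HPAA replicate 4 was the high liver for the carotene-cleaving enzyme Bco1 (11.0 against 7.10 to 7.67 CPM, gap 0.856), for Rxrb (32.4 against 27.4 to 28.1 CPM, gap 0.847), for Cyp2a4 (32.3 against 0.80 to 3.56 CPM, gap 0.912) and for the summed blood markers (734 against 152 to 163 CPM, gap 0.981). It was the low liver for Aldh1a1 (468 against 818 to 865 CPM, gap 0.881), for Mup1 (65.5 against 583 to 677 CPM, gap 0.847) and for Cyp26c1, with 0 counts (gap 0.927).

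Normal saline replicate 4 stood apart for Cyp2a4 (275 against 0.558 to 28.2 CPM, gap 0.899) and, on the low side, for Myof (0.962 against 2.23 to 2.39 CPM, gap 0.885). Normal saline replicate 3 was low for Fabp5, a fatty acid-binding protein that can carry retinoic acid (13.4 against 53.5 to 57.5 CPM, gap 0.910). Normal saline replicate 2 was high for the summed blood markers (2560 against 247 to 376 CPM, gap 0.944).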

How the results depend on the processing

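The members and the retinoid genes other than Cyp26a1 had 0 calls under every alternative run. Over all genes, 0 were called under edgeR, 2 with DESeq2 (Zfp36l2 and Ggnbp1) and 0 to 1 when a library was left out, the 1 call (CAAA01147332.1) arising without 4-HPAA replicate 1; none of these is a retinoid gene. The number of genes with an unadjusted p under 0.05 was 225, against 336 with the replicate block, 216 with DESeq2, 415 with a minimum of 10 counts summed, 528 with no filter and 196 to 340 with a library left out. Values near 0 changed sign. Dhrs3, at a log2 fold change of -0.0015, was 0.0030 with a minimum of 10 counts summed and 0.0029 with no filter, and ranged from -0.12 to 0.061 with a library left out. Rbp4, at 0.0059, was -0.0041 with total counts only and -0.0028 with the replicate block, and ranged from -0.075 to 0.093 with a library left out. Rarb, at -0.07, was 0.079 without normal saline replicate 1, its range being -0.17 to 0.079. Cyp26a1 ranged from -1.06 to 0.48, Cyp26b1 from 0.08 to 0.72, Lrat from 0.21 to 0.50 and Rara from 0.19 to 0.35, and under the replicate block Cyp26a1 was at -0.31.

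The excess of normal saline replicate 1 in Rarb was 0.96 log2 units by the transcript with the most counts and 0.08 by TPM, against 0.53 by CPM of the gene, and that in Dhrs3 was 0.21 by the transcript with the most counts. On the TPM scale, chosen after seeing the data, 1 member in place of 2 was highest in that library, and the 2 members whose highest livers were the replicates 1 were Cyp26a1 and Dhrs3 in place of Cyp26a1 and Rarb. The retinoid genes highest in it numbered 10 to 13.

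The deviations of same-numbered libraries of the 2 groups had correlations across genes of 0.0398, 0.168, 0.268 and 0.480 for numbers 1 to 4, so that the number was not taken to pair the livers. Not every library correlated best with its own number. Normal saline replicate 1 did so with 4-HPAA replicate 4 (0.138), and 4-HPAA replicate 1 with normal saline replicate 2 (0.143). Normal saline replicate 3 did so with 4-HPAA replicate 2 (0.466). Depth limits Rarb (34 to 60 counts) and Cyp26c1 (0 to 12 counts).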
